A study of Mus musculus with 250 samples.

Results

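Cholesterol is built from acetyl-CoA in a chain of enzymes, and 8 of them were followed here through single epidermal cells of mouse tail skin: Hmgcs1, Idi1, Fdps, Fdft1, Sqle, Lss, Cyp51 and Msmo1. They were taken by symbol from a table of 27003 genes, and all 8 had a row. The table holds read counts from 250 cells sequenced singly with Smart-Seq2, a plate-based method that covers whole transcripts and uses no molecular identifiers. All cells were labelled murine epidermal cells of genotype Lrig1CreER/Rosa-TdTomato, in which cells expressing Lrig1, a gene of the upper hair follicle, and their descendants carry a red fluorescent mark once the Cre recombinase is activated. They were Lrig1-lineage cells sorted for the surface protein Sca1, a step meant to enrich the upper hair follicle, at the 8-week time point that the labels write as 8w_pw1.

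The cells came from 3 regions of skin. The wound bed gave 85 cells, the distal memory region 81 cells, and the control non-memory region 84 cells. Each region was collected in 2 batches on a plate of its own, so the 6 plates held 30 and 55 wound bed cells, 32 and 49 distal cells, and 28 and 56 control cells in batches 1 and 2. Since no animal is named in the labels, each region counts as 1 sample, a region within a batch cannot be told apart from its plate, and no test between regions was possible. Ratios were taken within each batch and set against each other. Below, a gene is said to meet the size rule when its log2 ratio reached 1 or more, or −1 or less, in both batches with the same sign, provided that at least 10% of the cells of a compared region held a read in each batch.

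The enzymes act in order. Hmgcs1 makes HMG-CoA at the head of the mevalonate pathway. Idi1 and Fdps turn mevalonate-derived isoprene units into farnesyl diphosphate, Fdft1 joins pairs of these into squalene, Sqle oxidises squalene in a slow and tightly regulated step, Lss closes the sterol rings to give lanosterol, and Cyp51 and Msmo1 begin the removal of its extra methyl groups. When sterol levels drop, transcription factors of the SREBP family are released from the endoplasmic reticulum and switch on these genes together, binding sterol regulatory elements beside sites for NF-Y and Sp1. In skin, keratinocytes make cholesterol for the lipid barrier as they differentiate, and sebaceous glands make squalene and sterols for sebum.

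Because the members share this regulation, the promoters of 3 enzymes that the wound bed comparison below turns on are shown, from RefSeq on GRCm38.p6, each covering 250 bases before to 50 bases after the gene's start. The Hmgcs1 window is chr13:119690101-119690400 on the plus strand, the Idi1 window chr13:8885356-8885655 on the plus strand, and the Cyp51 window chr5:4104648-4104947 on the minus strand. All are written 5′ to 3′ along the gene, with capitals marking the sterol regulatory element letters TCACNCCAC and the NF-Y letters CCAAT on either strand (ATTGG as printed where the match lies on the other strand).
Hmgcs1: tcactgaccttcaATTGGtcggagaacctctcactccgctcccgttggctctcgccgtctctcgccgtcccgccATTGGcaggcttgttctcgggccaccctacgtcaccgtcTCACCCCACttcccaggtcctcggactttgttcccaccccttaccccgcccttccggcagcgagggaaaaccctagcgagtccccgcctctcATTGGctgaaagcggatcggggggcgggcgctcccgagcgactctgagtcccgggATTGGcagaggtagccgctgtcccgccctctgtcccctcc
Idi1: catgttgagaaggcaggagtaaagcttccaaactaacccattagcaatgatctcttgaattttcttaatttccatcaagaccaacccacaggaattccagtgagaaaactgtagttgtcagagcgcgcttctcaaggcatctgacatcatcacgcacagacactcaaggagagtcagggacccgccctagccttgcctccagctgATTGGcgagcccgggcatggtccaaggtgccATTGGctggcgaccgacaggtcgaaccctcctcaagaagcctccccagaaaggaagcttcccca
Cyp51: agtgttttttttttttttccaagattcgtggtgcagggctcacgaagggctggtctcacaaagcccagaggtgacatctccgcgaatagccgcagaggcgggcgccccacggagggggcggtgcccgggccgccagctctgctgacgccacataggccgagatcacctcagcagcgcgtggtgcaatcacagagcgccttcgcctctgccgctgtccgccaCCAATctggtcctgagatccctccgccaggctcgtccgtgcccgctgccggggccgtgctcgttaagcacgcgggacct
Of the 8 enzymes, 5 had a window in the table (Hmgcs1, Idi1, Lss, Cyp51 and Msmo1). The letters TCACNCCAC, searched on both strands, were in 1 of these 5 windows, that of Hmgcs1, where TCACCCCAC begins 137 bases before the start, and in 1.24% of all 32851 windows of the table. CCAAT was in 5 of the 5 windows against 37.4% of all windows, and the Sp1 letters GGGCGG were in 5 of the 5 against 35.7%. The Hmgcs1 window held 4 matches to CCAAT, the Msmo1 window 3, the Idi1 window 2, and the Lss and Cyp51 windows 1 each. None of these matches overlapped a match to another of the motifs searched, and a match is a description of letters, not of binding.

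Depth and cell makeup differed between plates. The 250 cells held 3857 to 3119120 reads each, with a median of 49298, and the plate medians were 40810 and 41206 reads in the wound bed, 93691 and 31686 in distal skin, and 74379 and 63287 in control skin. In distal batch 1, 4 cells exceeded 500000 reads. A basal-keratin gate (Krt5 plus Krt14 above Krt1 plus Krt10) took 15 of 30 and 30 of 55 wound bed cells, 20 of 32 and 33 of 49 distal cells, and 23 of 28 and 42 of 56 control cells, the rest falling in a suprabasal gate. Of 10 upper hair follicle markers, 9 had reads in each plate, the one at 0 being Lrig1 in wound bed batch 2 and Krt23 in the other 5. Their summed levels were 2338 and 12808 CPM (reads scaled to a common total, from plate sums) in the wound bed, 4263 and 6864 in distal skin, and 16573 and 28483 in control skin. Reads from repeat-like predicted genes exceeded 5% in 18 of 28 cells of control batch 1, against at most 6 cells in any other plate. Summed leukocyte markers stood at 0 to 20.6 CPM over the plates, with the highest value in distal batch 2, mostly from Ptprc at 16.1 CPM, and melanocyte markers at 0 to 1.59 CPM. Fibroblast markers were at 0 to 6.60 CPM in 5 plates and at 91.3 CPM in control batch 1, all of it Dcn, while Col1a1 and Lum had no read there. Their part in the results below was not tested.

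Reads for the pathway were sparse. Of the 250 cells, 167 held a read of any of the 8 enzymes: Hmgcs1 was found in 115 cells, Msmo1 in 50, Fdft1 in 47, Fdps in 38, Idi1 in 35, Cyp51 in 30, Sqle in 28 and Lss in 15. At least 1 enzyme was detected in 69.4% of wound bed cells (exact Clopper-Pearson 95% interval 58.5% to 78.95%). The share was 75.3% in distal skin (64.5% to 84.2%) and 55.95% in control skin (44.7% to 66.8%). With every cell thinned to 10000 reads, which left out 7 wound bed, 4 distal and 1 control cells, the shares were 58.97% in the wound bed, 57.1% in distal skin and 42.2% in control skin (31.4% to 53.5%). Control skin was the lowest region either way, although its interval overlapped those of the other regions at equal depth. These intervals cover counting error only.

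Hmgcs1 (chr13:119690379-119708260, plus strand, GRCm38 with GENCODE M21 gene models, here and for the other genes), which makes HMG-CoA, was the most widely detected member and was higher in the wound bed and in distal skin than in control skin. Its TMM-scaled level, the CPM of the summed plate after edgeR's scaling, was 148 and 319 CPM in wound bed batches 1 and 2, 390 and 215 CPM in distal skin, and 72.9 and 115 CPM in control skin. The lowest of the 4 wound bed and distal plates lay above the higher control plate. In batches 1 and 2, its log2 ratio was 1.01 and 1.47 for the wound bed against control, which meets the size rule, and 2.40 and 0.90 for distal skin against control, which misses it in batch 2. With the repeat-rich cells of control batch 1 and the other plates left out, the distal ratios were 2.77 and 1.04, and they met the size in 4 of 13 other settings. Averaged over cells, so that every cell counts alike, the level was 196 and 268 CPM in the wound bed, 544 and 229 CPM in distal skin, and 132 and 114 CPM in control skin. The same plates were low on this scale, and the batch 1 gap between wound bed and control narrowed, to a log2 ratio of 0.57.

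At equal depth Hmgcs1 also differed in how many cells held it. At 10000 reads per cell it was detected in 46.2% of the cells in the wound bed (34.8% to 57.8%), 48.1% in distal skin (36.5% to 59.7%) and 24.1% in control skin (15.4% to 34.7%). By batch these shares were 37.9% and 51.02% in the wound bed, 59.4% and 40% in distal skin, and 32.1% and 20% in control skin. At this depth all 4 wound bed and distal plates stood above both control plates, and the batch 1 wound bed plate was the closest to control. Without thinning they overlapped: the shares were 43.3% and 49.1% in the wound bed, 71.9% and 46.9% in distal skin, and 46.4% and 28.6% in control skin. Pooled over batches, the unthinned share was 47.1% in the wound bed (36.1% to 58.2%), 56.8% in distal skin (45.3% to 67.8%) and 34.5% in control skin (24.5% to 45.7%), with overlapping intervals throughout. At 10000 reads per cell no other member had pooled intervals that stayed apart, as the plot of detection at equal depth shows. For Hmgcs1, the wound bed interval began at 34.8% and the control interval ended at 34.7%, in 1 thinning of the cells. In batch 1 these intervals overlapped, at 20.7% to 57.7% in the wound bed and 15.9% to 52.4% in control skin. In batch 2 they did not (36.3% to 65.6% against 10.4% to 32.97%). Distal and control intervals overlapped in both batches. Intervals over cells cover counting error only, so they do not separate the regions. Across the 13 other settings, 2 of them added after the values were seen, the wound bed against control ratio of Hmgcs1 met the size in 6 and was above 0 in both batches in 12, the exception being cells of the basal-keratin gate, where batch 1 gave −0.07. Detection within that gate also split by batch: in batch 1, 5 of 15 basal-gate wound bed cells held Hmgcs1 (33.3%), against 10 of 23 control cells (43.5%), while in batch 2 it was 18 of 30 wound bed cells (60%), against 8 of 42 control cells (19.05%).

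**Figure D1:**
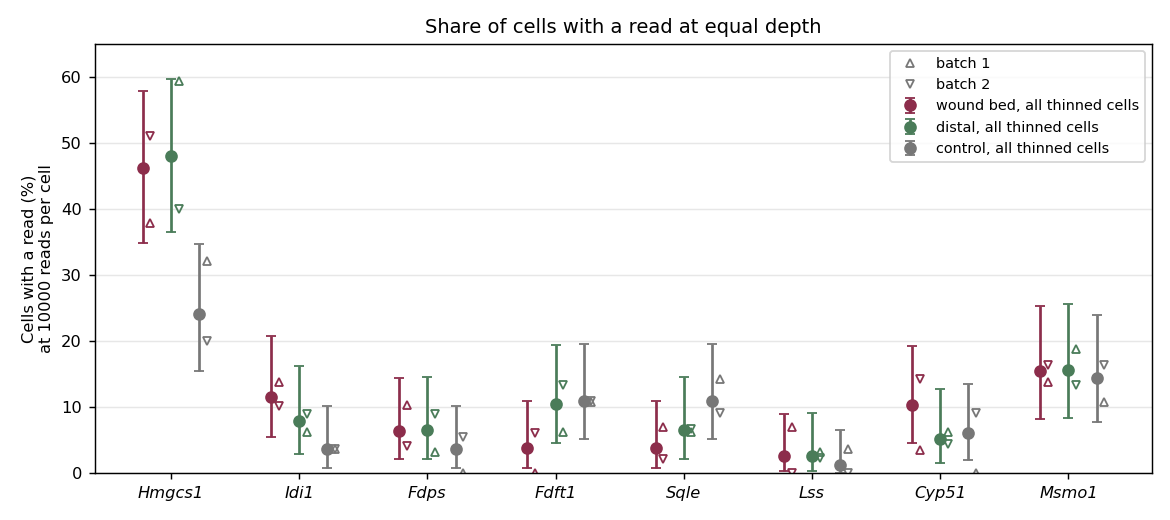
Share of cells with a read of each enzyme after thinning every cell to 10000 reads, by region. Filled circles are all thinned cells of a region with exact 95% intervals for counting error, and open triangles are the batches by themselves. Hmgcs1 lies at 46.2% in the wound bed and 48.1% in distal skin, above 24.1% in control skin, and the other 7 enzymes have overlapping intervals. The Hmgcs1 intervals of the wound bed (from 34.8%) and control skin (up to 34.7%) nearly meet.

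Idi1 (chr13:8885501-8892451, plus strand), which isomerises isopentenyl diphosphate, was higher in the wound bed and in distal skin than in control skin in both batches. It stood at 42.6 and 63.1 CPM in the wound bed, 133 and 28.8 CPM in distal skin, and 6.52 and 6.40 CPM in control skin. The 2 control plates were close to each other, and the lowest of the other 4 plates lay well above them. The log2 ratio was 2.53 and 3.11 for the wound bed against control and 4.16 and 2.01 for distal skin against control. These comparisons share the control plates, so they are not independent of each other. The size rule was met in both. The wound bed ratio also met it under all 13 other settings run, and the distal ratio under 12, the exception being cells thinned to 10000 reads, where the ratios were 3.33 and 1.88 but too few cells held a read (6.25% and 8.89% of distal and 3.57% and 3.64% of control cells). With the repeat-rich cells left out, 18 of which lay in control batch 1, the ratios were 1.25 and 3.07 for the wound bed and 2.87 and 2.06 for distal skin.

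Few control cells held Idi1. It was found in 17 wound bed cells (20%, 12.1% to 30.1%), 13 distal cells (16.05%, 8.83% to 25.9%) and 5 control cells (5.95%, 1.96% to 13.3%). In control batch 1 all 23 reads sat in 1 cell, and in control batch 2 the top cell held 29 of 32 reads. With the top cell for Idi1 left out of every plate, the log2 ratios were 4.87 and 4.15 for the wound bed against control and 5.97 and 3.35 for distal skin against control. Control batch 1 then had 0 Idi1 reads and control batch 2 had 3, so the batch 1 ratios are set by the 1 CPM added to each level and show nothing about stability. At 10000 reads per cell the shares were 11.5%, 7.79% and 3.61% in wound bed, distal and control cells, with overlapping intervals. The higher level therefore rested on few cells in every region, and Idi2, the close paralog, had only 22 reads over all 250 cells.

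Fdps (chr3:89093588-89101959, minus strand), which makes farnesyl diphosphate, had no course that held across batches. Its level was 17.1 and 7.55 CPM in the wound bed, 3.30 and 10.7 CPM in distal skin, and 0.567 and 12.4 CPM in control skin. Control batch 1 was the lowest plate, with 2 reads, and control batch 2 stood above both the wound bed and the distal plate of that batch. From CPM, the batch 1 ratio of wound bed to control was 30.2 with a counting interval of 7.69 to 261. In batch 2 it was 0.609 (0.366 to 0.983). Fdps shares 1124 exon bases on the same strand with Gm43738, annotated as protein-coding, which had no row. The effect of this overlap on the Fdps counts was not tested.

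Fdft1 (chr14:63145150-63179578, minus strand), the squalene synthase, was highest in control batch 2. It had 13.3 and 36.8 CPM in the wound bed, 24.5 and 35.3 CPM in distal skin, and 11.9 and 91.4 CPM in control skin. In batch 1 the log2 ratio against control was 0.14 for the wound bed and 0.98 for distal skin, and in batch 2 it was −1.29 for the wound bed and −1.35 for distal skin. The sign turned between batches in both comparisons. Fdft1 shares 774 exon bases with Ctsb on the opposite strand, a gene with 9853 reads over all cells. Smart-Seq2 does not mark strand, so reads from the shared bases cannot be told apart.

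Sqle (chr15:59315077-59331192, plus strand), the squalene epoxidase, ran the opposite way to Hmgcs1 and Idi1. Its level was 47.6 and 4.53 CPM in the wound bed, 74.7 and 5.37 CPM in distal skin, and 1245 and 43.8 CPM in control skin. Control was the highest region within each batch, while batch 1 exceeded batch 2 in every region, so that control batch 2 lay below the batch 1 plates of the other regions. The log2 ratio was −4.68 and −3.02 for the wound bed against control, a mean of 14.4-fold lower, and −4.04 and −2.81 for distal skin against control, a mean of 10.8-fold lower. Both met the size rule. Under 13 other settings the ratio kept this size in 12 for the wound bed, falling short at −0.84 in batch 2 among basal-gate cells, and in 13 for distal skin. With the filter on cells counted too, the rule was met in 11 for each, since too few cells held Sqle after thinning to 10000 reads in both comparisons and in the basal gate for distal skin. With those repeat-rich cells left out, the ratios were −5.66 and −3.09 for the wound bed and −5.03 and −2.80 for distal skin.

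The Sqle difference was one of amount in a few cells more than of how many cells held it. Sqle was detected in 5 wound bed cells (5.88%, 1.94% to 13.2%), 12 distal cells (14.8%, 7.90% to 24.4%) and 11 control cells (13.1%, 6.72% to 22.2%), and at 10000 reads per cell in 3.85% of wound bed, 6.49% of distal and 10.8% of control cells. Among cells with a read, the median level was 563 and 23.4 CPM in the wound bed, 69.8 and 163 CPM in distal skin, and 1613 and 309 CPM in control skin. In control batch 1, 1 basal-gate cell of 339713 reads held 3253 of the plate's 4392 Sqle reads (74.1%), at 9576 CPM, and the top 3 cells held 98.95%. Yet the direction did not rest on that cell alone. Without the top Sqle cell of every plate the log2 ratios were −6.66 and −3.87 for the wound bed against control. For distal skin against control they were −3.50 and −2.66. The wound bed plates then held 4 and 3 Sqle reads, so the size of the wound bed ratios depends on the 1 CPM added and says little. In control batch 1, 1139 reads remained, of which single cells held 683 and 410, so the control level still rested on few cells.

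The summed level of sebaceous gland markers followed the order of Sqle in batch 1, but through Scd1. Of 11 listed markers 8 had a row, and their summed level was 401 and 594 CPM in the wound bed, 1281 and 332 CPM in distal skin, and 3083 and 511 CPM in control skin, with 4 or 5 of the 8 genes detected in each plate. Mc5r was at 0 in all 6 plates, and Cidea, Far2 and Awat2, a wax synthase of the gland, were at 0 in control batch 1. In batch 1, Scd1 alone gave 236 CPM in the wound bed, 843 CPM in distal skin and 2757 CPM in control skin. The rest of the batch 1 sum was higher in distal skin than in control skin. The control batch 1 cell with the most Sqle had no Scd1 read but 289 reads of Mgst1, another of the listed markers. The next, with 683 Sqle reads, had 1568 of Scd1 and 64 of Mgst1. No other listed marker had a read in either cell. In batch 2 the markers did not follow Sqle: their summed level was 594 CPM in the wound bed and 511 CPM in control skin. Their part in the Sqle result was otherwise not tested.

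**Figure D2:**
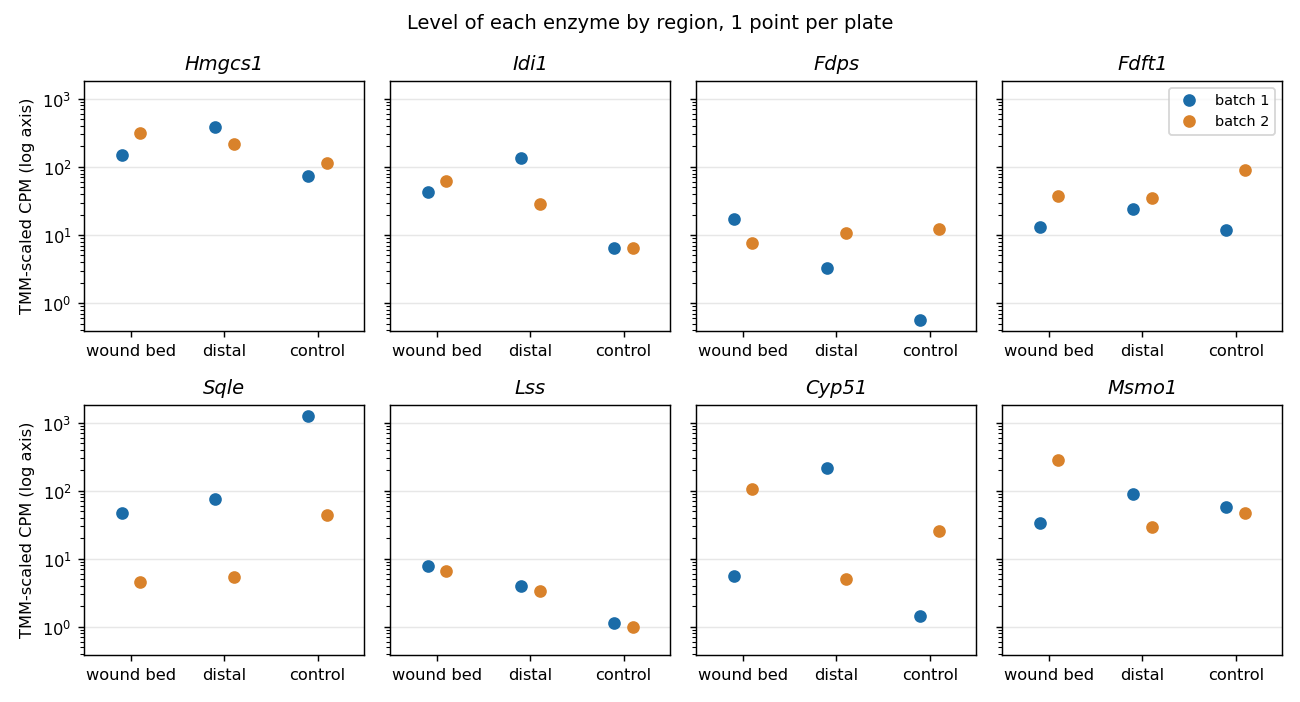
TMM-scaled CPM of each enzyme on a log axis, with 1 point per plate and the batches in 2 colours. Hmgcs1, Idi1 and Lss are lowest in the 2 control plates, whereas Sqle is highest in control skin within each batch, at 1245 CPM in batch 1 and 43.8 CPM in batch 2.

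Lss (chr10:76531588-76557138, plus strand), the lanosterol synthase, was the rarest member. It had 7.74 and 6.64 CPM in the wound bed, 3.97 and 3.39 CPM in distal skin, and 1.13 and 1.0002 CPM in control skin. The regions did not overlap and kept the same order in both batches. The log2 ratio was 2.03 and 1.93 for the wound bed against control, and 1.22 and 1.13 for distal skin against control. These are the size of change the rule asks for, but Lss did not have the required share of cells: it was found in 6 wound bed cells, 7 distal cells and 2 control cells, with 14 and 22, 30 and 12, and 4 and 5 reads in batches 1 and 2. Over 13 other settings both batches stayed above 0 in 11 for each comparison. Leaving out the repeat-rich cells turned the distal ratio of batch 1 to −0.20. Thinning to 20000 reads gave −0.25 for the wound bed and −1.02 for distal skin in batch 2, and thinning to 10000 reads gave 0 for the wound bed in batch 2, where no cell of either plate held a read.

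Cyp51 (chr5:4081145-4104746, minus strand), the lanosterol demethylase, was higher in the wound bed but split between batches in distal skin. Its level was 5.53 and 104 CPM in the wound bed, 218 and 5.09 CPM in distal skin, and 1.42 and 25.8 CPM in control skin. The log2 ratio was 1.43 and 1.97 for the wound bed against control, which meets the size rule, and 6.50 and −2.14 for distal skin against control. Of the 1651 reads in distal batch 1, 1579 came from 1 cell of 971643 reads, and without cells over 500000 reads the batch 1 distal ratio was 1.47, against −2.15 in batch 2. The wound bed ratio rests on 10 reads in the wound bed and 5 in control skin in batch 1, a ratio of 3.90 (1.21 to 14.5) from CPM, and it fell to 0.36 in batch 1 among cells with at least 2000 genes. Cyp51 shares 166 exon bases with Akap9 on the opposite strand, which had 2143 reads over all cells, and the reads of those bases cannot be assigned to either gene. Hmgcs1, Idi1 and Lss share 557, 323 and 381 exon bases with other opposite-strand genes. The one overlapping Hmgcs1 had 1 read over all cells, and those overlapping Idi1 and Lss had no row.

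Msmo1 (chr8:64718139-64733792, minus strand), the sterol methyl oxidase that follows, showed no regional course. It had 33.7 and 281 CPM in the wound bed, 87.9 and 29.4 CPM in distal skin, and 58.1 and 47.01 CPM in control skin. The wound bed held both the second lowest and the highest of the 6 plates, and the control plates lay between. At 10000 reads per cell it was detected in 15.4% of wound bed, 15.6% of distal and 14.5% of control cells. In wound bed batch 2, the top cell held 449 of 931 reads.

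Set per kilobase of exon, so that genes can be compared, Hmgcs1 was the highest of the 8 in 5 of 6 plates. Its level was 32.3 and 69.5 CPM per kb in the wound bed, 84.9 and 46.8 in distal skin, and 15.9 and 24.99 in control skin. In control batch 1 Sqle stood at 225 CPM per kb and took that place. Lss was the lowest in all 6 plates, at 0.0927 to 0.718 CPM per kb over all 6. This place depends on the length used. The merged exons of Lss span 10.8 kb, against 3.5 to 6.14 kb for the other members. Without that division Lss was the lowest only in batch 2 of distal and control skin. Cyp51 lay below it in wound bed batch 1, Sqle in wound bed batch 2, and Fdps in batch 1 of distal and control skin. The order per kilobase of the other 6 enzymes changed from plate to plate.

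Read over the pathway, 7 of the 8 enzymes passed the filter on cells in the wound bed against control comparison, and 3 met the size rule as higher (Hmgcs1, Idi1 and Cyp51) and 1 as lower (Sqle). Over all 5776 genes considered, 7.83% met it as higher and 8.24% as lower. The same filter applied to all genes, but Idi1 passed it only through the wound bed, with 3.57% and 7.14% of control cells holding a read. Sqle passed only through control skin, with 6.67% and 5.45% of wound bed cells, and Cyp51 in batch 1 only through the wound bed, at 10% of cells. Between distal skin and control, 7 enzymes passed the filter, 1 met the rule as higher (Idi1) and 1 as lower (Sqle), against 8.07% higher and 6.09% lower of 6356 genes. Here Idi1 passed the filter only through distal skin, with 18.75% and 14.3% of distal cells. In batch 2 Sqle passed only through control skin, with 12.5% of control and 8.16% of distal cells. Between distal skin and the wound bed, 6 enzymes passed the filter and 0 met the rule in either direction, against 9.59% higher and 5.28% lower of 6285 genes. The distal counts are 1 gene in each direction or 0, too few to set apart from those shares. Ratios of the same sign in both batches, whatever their size, were found as higher in 3 and lower in 1 of the 7 for the wound bed against control (27.3% and 27.4% of all genes considered), as higher in 2 and lower in 1 of the 7 for distal skin against control (26.7% and 23.9%), and in 0 of the 6 for distal skin against the wound bed (27.4% higher and 21.4% lower).

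**Figure D3:**
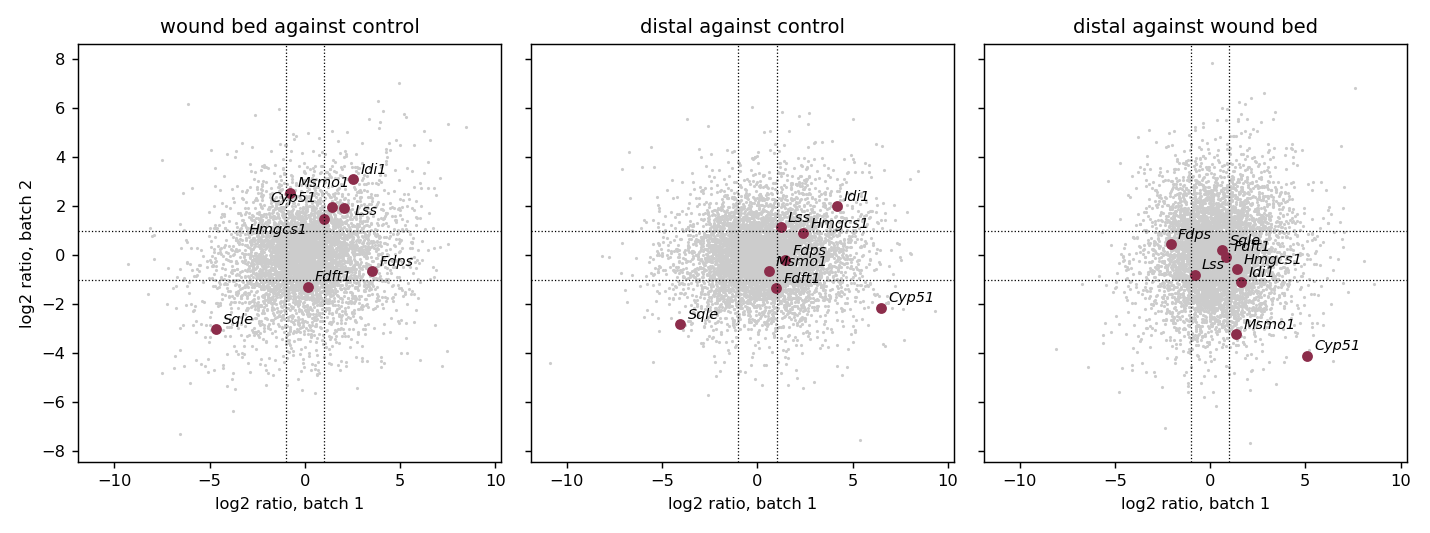
Log2 ratio of each enzyme in batch 1 (x axis) and batch 2 (y axis) for the 3 comparisons, over grey points for all genes considered. Dotted lines mark a ratio of 1 in size. Hmgcs1, Idi1, Cyp51 and Lss lie in the upper right corner for the wound bed against control, Sqle lies in the lower left for both comparisons with control, and no enzyme reaches either corner for distal skin against the wound bed.

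The median log2 ratio of the 8 enzymes was 1.22 and 1.70 in batches 1 and 2 for the wound bed against control, against 0.03 and −0.03 over all genes considered. Distal skin against control gave 1.34 in batch 1 and −0.42 in batch 2, against 0.23 and −0.07 over all genes. Distal skin against the wound bed gave 1.10 and −0.68, against 0.25 and −0.02. These medians include members that failed the filter on cells, unlike those over all genes. For the members that passed it, the medians were 1.01 and 1.47 for the wound bed against control. They were 1.46 and −0.66 for distal skin against control, and 1.37 and −0.84 for distal skin against the wound bed. So the enzymes as a list were above the median of the genes considered in both batches for the wound bed against control alone, and changed side between batches in both distal comparisons. Directly between distal skin and the wound bed, 6 of the 8 had ratios of opposite sign in the 2 batches, with Cyp51 at 5.07 and −4.11 and Msmo1 at 1.36 and −3.21 the widest apart.

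The summed level of the 8 enzymes did not separate the regions. The sum was 316 and 823 CPM in the wound bed, 936 and 333 CPM in distal skin, and 1398 and 343 CPM in control skin. Its log2 ratio was −2.14 and 1.26 for the wound bed against control and −0.58 and −0.04 for distal skin against control. The sum of the other 7 without Sqle, an alternative added after the values were seen, was 268 and 819 CPM in the wound bed, 861 and 328 CPM in distal skin, and 153 and 299 CPM in control skin. That gave log2 ratios of 0.81 and 1.45 for the wound bed against control and 2.49 and 0.13 for distal skin against control, all above 0. In control batch 1 Sqle was thus most of the sum, at 4392 of 4930 reads.

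Single cells carried much of each plate's signal, as the map of top cells shows. The cell with the most reads of a gene held 18.3% to 39.7% of the plate's reads for Hmgcs1 and 43.3% to 100% for Lss. For Sqle the range was 36.8% to 95.3%. In control batch 1 a single cell held every read of Idi1, of Lss and of Cyp51. Plate ratios for the rarer members therefore compare a few cells on each side.

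**Figure D4:**
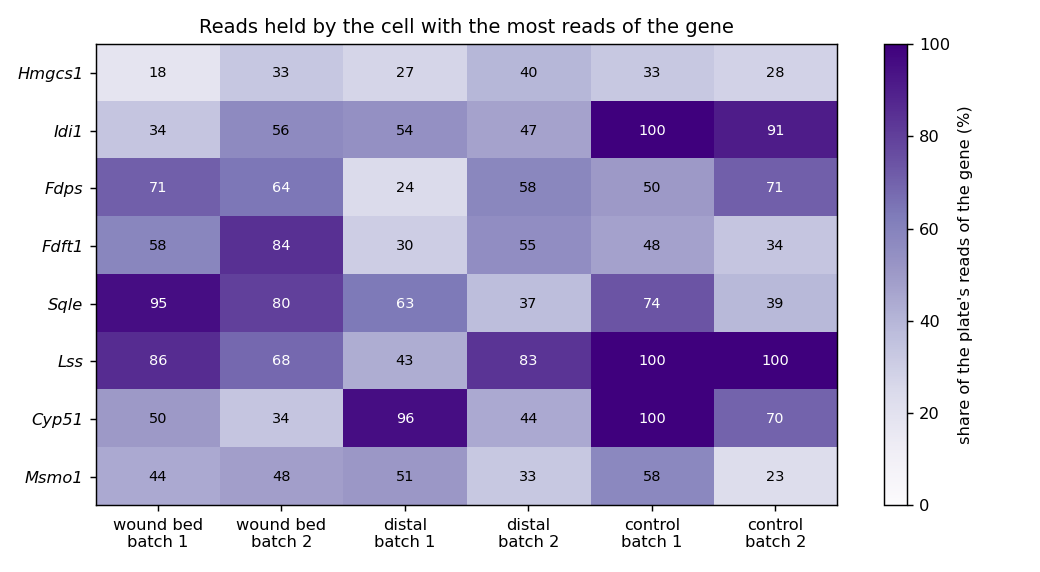
Share of a plate's reads of each enzyme that came from the cell with the most reads of it, in percent, by plate. Hmgcs1 stays between 18.3% and 39.7%, while Idi1, Lss and Cyp51 reach 100% in control batch 1.

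Cells that expressed one enzyme tended to hold others. Within plates, Spearman's rho between 2 enzymes over cells, averaged over the 6 plates of 28 to 56 cells, was above 0 for all 28 pairs, with a median of 0.17 and a range of 0.02 to 0.31. At 10000 reads per cell the median was 0.13, from −0.08 to 0.35, and 24 of 28 pairs were above 0. Summed over the pairs, there were 389 instances of a cell holding both enzymes, against 222.7 from the product of their shares within plates, and after thinning 152 against 75.8. These correlations are weak, the cells of a plate share their preparation and differ widely in depth, and the values are given as a description. Before thinning, the product of shares does not allow for that depth. No such values are given for pairs of other genes, so it is not shown that the enzymes differ from other genes in this.

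Within cells, Sqle went with the other members, although its regional course ran the other way. Its 7 pairs had a median rho of 0.25, from 0.11 to 0.31, against 0.16 for the 21 pairs without it, and after thinning 0.15 against 0.12. Without thinning, Idi1 with Sqle was the strongest pair, at 0.31, with 11 cells holding both against 3.73 from their shares. Sqle with Msmo1 followed at 0.29, with 16 cells against 5.83. At 10000 reads per cell Idi1 with Sqle stood at 0.17, with 3 cells against 1.09, and the highest pair was Idi1 with Cyp51, at 0.35, with 7 cells against 1.34. In control skin alone, 8 cells held both Sqle and Msmo1 against 2.11 from their shares, and 5 held both Sqle and Cyp51 against 0.893. The weakest pair without thinning was Hmgcs1 with Lss, at 0.02, with 8 cells holding both against 8.06.

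**Figure D5:**
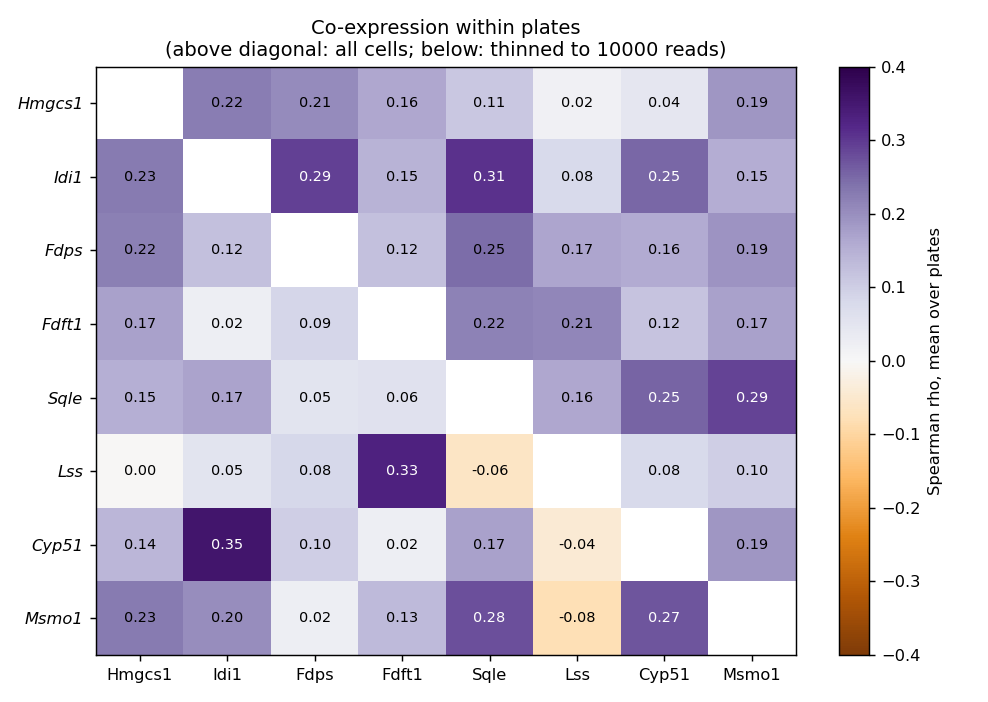
Spearman's rho between each pair of enzymes over cells, averaged over the plates in which both were detected, with all cells above the diagonal and cells thinned to 10000 reads below it. All 28 values above the diagonal are positive, from 0.02 to 0.31, and after thinning 24 of 28 are.

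A small number of cells held most of the pathway. At least 3 of the 8 enzymes were found in 15 wound bed cells (17.6%), 20 distal cells (24.7%) and 12 control cells (14.3%), and none in 26 wound bed, 20 distal and 37 control cells. All 8 were found in 2 cells, both from wound bed batch 2 and the basal-keratin gate, with 302292 and 114182 reads. A further 4 cells held 7 enzymes: 2 of distal batch 1, with 1703213 and 971643 reads, and 2 of control batch 2, with 235861 and 192844 reads. The number of enzymes in a cell went with its depth, the rank correlation with reads being 0.23 to 0.53 within plates. After thinning, at least 3 enzymes were found in 8.97% of wound bed, 13% of distal and 8.43% of control cells.

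Detection also followed the keratin state of the cell. At 10000 reads per cell, at least 1 enzyme was detected in 67.9% of suprabasal-gate cells (56.8% to 77.6%) and 44.2% of basal-gate cells (36.2% to 52.4%). Hmgcs1 was found in 52.4% of suprabasal-gate cells (41.2% to 63.4%) and 31.8% of basal-gate cells (24.6% to 39.8%), and its share was higher in the suprabasal gate in 5 of 6 plates. Fdps was found in 11.9% of suprabasal-gate and 1.95% of basal-gate cells, Msmo1 in 23.8% and 10.4%, and Cyp51 in 13.1% and 3.90%. Sqle, in 9.52% of suprabasal-gate cells (4.20% to 17.9%) and 5.84% of basal-gate cells (2.71% to 10.8%), had overlapping intervals. Idi1 did not share this, at 7.14% of suprabasal-gate and 7.79% of basal-gate cells, nor did Lss, at 2.38% and 1.95% (4.60% and 6.75% without thinning). Suprabasal-gate cells were more frequent in the wound bed than in control skin in both batches, and among basal-gate cells alone the log2 ratio of Idi1 for the wound bed against control was 2.92 and 6.002, while that of Hmgcs1 was −0.07 and 2.70. The Idi1 value of batch 2 is set against 1 read in control skin.

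The rest of the pathway was read from a list of 15 further cholesterol synthesis genes, of which 10 passed the filter in each comparison. For the wound bed against control, 2 of the 10 met the size rule as higher and 0 as lower, against 7.83% and 8.24% of all genes considered. They were Sc5d, the sterol C5 desaturase, with 101 and 74 reads in the wound bed and 0 and 20 in control skin, and Lbr, a sterol reductase and lamin receptor, at log2 ratios of 3.27 and 1.25. Set against a floor of 3 reads in place of the 0 in the control plate, Sc5d was 65.7-fold higher in wound bed batch 1. The lower end of the ratio's 95% counting interval there was 52.4-fold. In batch 2, Sc5d was 5.58-fold higher. Sc5d passed the filter on cells only through the wound bed, with a read in 7 and 12 cells against 0 and 3 in control skin. In distal skin, 1 of 10 met it as higher and 0 as lower against control, and likewise against the wound bed: Acat2, which supplies acetoacetyl-CoA, at 2.73 and 1.02 against control and 1.05 and 2.502 against the wound bed. Against the wound bed in batch 2, Acat2 passed the filter only through distal skin, with 5 of 49 cells against 5 of 55. Over all genes considered, 8.07% met the rule as higher and 6.09% as lower against control, and 9.59% and 5.28% against the wound bed, so 1 of 10 is near the background. The list median for the wound bed against control was 2.19 in batch 1 and −0.22 in batch 2, so it did not hold one side of 0.

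Genes that govern the pathway were mixed. Srebf2, the SREBP that drives cholesterol genes, had log2 ratios of 0.27 and −1.65 for the wound bed against control, on 14 and 6 reads in the wound bed and below the filter on cells, and −0.03 and 0.02 for distal skin against control. Insig1, which holds SREBPs in the endoplasmic reticulum and is itself an SREBP target, had 0.60 and −0.90 for the wound bed and 3.01 and 0.88 for distal skin. Insig1 passed the filter in no comparison and had 11 and 2 reads in the wound bed. Of 12 SREBP control and uptake genes with a row, 8 passed the filter for the wound bed against control and 1 met the size rule: Mylip, a sterol-regulated ubiquitin ligase, higher at 3.35 and 2.09. Mylip passed the filter there only through the wound bed, with a read in 7 and 16 cells against 1 and 4 in control skin. Mylip was also the 1 gene of 10 to meet the size rule for distal skin against the wound bed, lower at −4.10 and −4.49. For distal skin against control, 0 of 10 met it. These counts of 1 or 0 are near the shares over all genes just given.

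Of 8 genes of sterol efflux and storage, 3 passed the filter for the wound bed against control and 1 met the rule, Apoe, the lipid carrier, lower at −1.94 and −2.95, where 8.24% of all genes considered met it as lower. Apoe stood at 971 and 941 CPM in the wound bed, 1485 and 4817 CPM in distal skin, and 3742 and 7294 CPM in control skin. In distal skin 0 of 4 met it against control and 1 of 4 against the wound bed, the transporter Abcg1, with 297 and 26 reads in distal skin and 0 and 1 in the wound bed. Abcg1 passed the filter only through distal skin, with a read in 7 and 6 cells against 0 and 1 in the wound bed. In that comparison, 9.59% of all genes considered met the size rule as higher, and lists this short cannot be set apart from such shares. Of 12 fatty acid synthesis genes 0 met the rule in any comparison, where 8 passed the filter for the wound bed against control, 8 for distal skin against control and 6 for distal skin against the wound bed. With 5.28% to 9.59% of all genes considered meeting it in a given direction, 0 of so few is near the background.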

How the data were processed

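Per the labels, single Lrig1-lineage, Sca1-sorted cells of mouse tail epidermis were sequenced with Smart-Seq2. The authors deposited raw read counts per gene for 250 cells, whole numbers that were not normalized. Salmon 0.13.1, Seurat, R 4.0.3, mm10 and GRCm38 appear in the submitters' processing notes with no role given, and the strand setting of counting is not given in the sources used here. Without molecular identifiers, reads are not independent molecules, and intervals cover counting error only.

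Groups, batches and plates came from the labels. Counts were summed per plate (1751116 to 10671470 reads), scaled with TMM (edgeR 4.0.16 in R 4.3.3), and log2 ratios were taken within each batch after adding 1 CPM. The labels name no animal, so no test was run, and the same size rule over all genes gave the background. Shares of cells were also computed after thinning each cell once to 10000 reads with a fixed seed. Alternatives were total counts, size factors from DESeq2 1.42.0, equal weight per cell, thinning, exclusion of cells or of mitochondrial genes, another pseudocount and other filters. The ratio calculation was tested on simulated data. The members, gene lists, markers and settings were chosen with earlier results of these data known, so no pattern here is independent support for them. All members were named, together with the listed genes that met the size rule and Srebf2 and Insig1, which the rule named whatever their values. Single values of some listed genes are not reported here. Promoters came from RefSeq, and gene positions from GENCODE M21.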

Additional observations from a re-analysis of the deposited data

How the results depend on the processing

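With 1 sample per region, no result has an error between animals, and single deep cells carry much of each plate. The batches of the summed level lay at −2.14 and 1.26 for the wound bed against control and at 1.56 and −1.30 for distal skin against the wound bed, so that staying within that spread says little. The mean log2 ratio of the sum for the wound bed against control, −0.44, turned to 0.12 with equal weight per cell, 0.34 after thinning to 20000 reads, 0.28 without the top enzyme cell of each plate and 1.13 for the 7 enzymes without Sqle. That for distal skin against the wound bed, 0.13, turned to −0.09 with total counts, −0.56 in basal-gate cells and −0.20 without the top enzyme cell. For distal skin against control, where the mean log2 ratio of the sum was −0.31, it was 0.37 with equal weight per cell, 0.25 and 0.50 after thinning to 10000 and 20000 reads, 0.41 in cells with at least 2000 genes, −0.77 without the repeat-rich cells and −0.77 in basal-gate cells. It was 0.076 without the top enzyme cell of each plate and 1.31 for the 7 enzymes without Sqle, both added after the data were seen.

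The number of enzymes meeting the size rule for the wound bed against control, 4, was 2 after thinning to 10000 reads, 2 in cells with at least 2000 genes, 2 with a pseudocount of 10 and 1 with a filter of 25% of cells. Those after thinning to 10000 reads were Idi1, as higher, and Fdft1, as lower, which did not meet the rule in the main setting. The number was 3 with DESeq2 size factors, equal weight per cell, thinning to 20000 reads or basal-gate cells alone. It was 6 in batch 1 alone and 6 in batch 2 alone. The 2 for distal skin against control became 1 and 4 after thinning to 10000 and 20000 reads, 1 in basal-gate cells, 0 with the 25% filter, and 6 and 4 in batch 1 and batch 2 alone. The 0 for distal skin against the wound bed became 1 with equal weight, 1 after thinning to 20000 reads, 1 in basal-gate cells, and 5 and 3 in batch 1 and batch 2 alone. A single batch counts more genes because only 1 ratio has to pass, and the 25% filter considers fewer genes. The cause of the other shifts was not tested. No called member changed the sign of its mean ratio under any alternative run. Of the 6 calls of single members against control, Idi1 in the wound bed met the rule under all 13 other settings, Idi1 in distal skin under 12, Sqle under 11 in each region, Cyp51 under 8 and Hmgcs1 under 6. No paired analysis was possible because the labels name no animal and no test was run, although all ratios were taken within the batches that the regions share.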

Other observations

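Genes whose level followed the summed level of the 8 enzymes from cell to cell were ranked over 1105 genes found in at least 25% of the cells of every plate, by Spearman's rho with depth held constant, averaged over the 6 plates. The 10 highest were Dynll1 (0.30), Car13 (0.29), Emp2, Tmem45a and Klf4 (0.28 each), Gltp, Lamp1 and Sgpl1 (0.27 each), and Gng12 and Dsg1a (0.26 each), against a median of 0.05 and a 97.5th percentile of 0.22 over all 1105. Klf4 is a transcription factor and Dsg1a a desmosomal cadherin of differentiating keratinocytes, Gltp transfers glycolipids, and Sgpl1 breaks down sphingosine phosphate. Of the 10, 9 had a rho above 0 in all 6 plates, the exception being Gng12, at −0.15 in wound bed batch 1. For Sqle alone the order was led by Ggh (0.23), Cyfip1 and Sf3b5 (0.22 each), and the 10th, Ppp1cb, stood at 0.19, against a median of 0.02. The top 10 genes for Sqle shared none with those for the sum, which says little for lists of 10 out of 1105 genes. Cells of a plate share library preparation, and these weak values are a description.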
